A study of Mus musculus with 59 samples.

Results

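*Cdx1*, *Cdx2* and *Cdx4* are the caudal-type homeobox genes of the mouse, and they are 3 of the 24391 genes listed by symbol in RNA-seq data of 59 libraries from 6 conditional embryonic stem cell (ESC) lines. The group was chosen on measured values: *Cdx1* was among the strongest rises in embryoid bodies (EBs) with catalytically inactive RING1A and RING1B, and its paralogues were taken with it. The EB values of that line are therefore given as a description with no test. Tests compare only libraries that played no part in the choice, but in that line the EB libraries enter the spread of the fit. In the *Pcgf1* and *Ring1* point mutant lines *Cdx1* was by far the most abundant of the 3 in ESCs and was nearly lost in control EBs. *Cdx4* was close to 0 in ESCs and reached a few TPM in some EBs, and *Cdx2* reached 1 TPM in only 15 of the 59 libraries. TPM are transcript abundances scaled for gene length and library total, so levels of different genes can be compared.

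CDX proteins are transcription factors that bind DNA through a caudal-type homeodomain. In the embryo they act in the posterior epiblast and tailbud, downstream of Wnt, FGF and retinoic acid signals, and they activate *Hox* genes and promote growth of the trunk and tail. *Cdx2* also acts in the trophectoderm of the blastocyst and, with *Cdx1*, in the intestinal epithelium, whereas *Cdx4* is known mainly from the posterior embryo and from blood formation. *Cdx2* lies in the ParaHox cluster with *Pdx1* and *Gsx1*, and developmental homeobox genes of this kind are textbook targets of the Polycomb complexes PRC1 and PRC2. RING1A and RING1B are the catalytic subunits of PRC1 and ubiquitinate histone H2A, and each PCGF protein marks a different form of the complex.

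On mm9, the build of the deposited data, *Cdx2* (ENSMUSG00000029646.3) lies on the minus strand of chromosome 5 at 148112381 to 148118846, and *Cdx4* (ENSMUSG00000031326.2) on the plus strand of chromosome X at 100516737 to 100525931. Each is annotated with 1 transcript of 3 exons, of 2261 and 1963 bases in that order. Promoters are shown for *Cdx2* and *Cdx4*, the 2 of 3 members matched in the RefSeq table used (GRCm38.p6), since PCGF1 forms of PRC1 are known to be brought to DNA rich in unmethylated CpG. The sequences are the 250 bases before the start site, read 5′ to 3′ along the gene, at chr5:147307250-147307499 (minus strand) and chrX:103321148-103321397 (plus strand) of GRCm38.p6, with CpG dinucleotides in capitals.
Cdx2: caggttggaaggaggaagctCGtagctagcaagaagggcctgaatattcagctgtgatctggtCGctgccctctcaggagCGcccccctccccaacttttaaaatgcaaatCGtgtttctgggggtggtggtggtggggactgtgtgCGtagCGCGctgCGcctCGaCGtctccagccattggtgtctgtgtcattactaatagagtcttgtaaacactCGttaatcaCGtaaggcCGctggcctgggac
Cdx4: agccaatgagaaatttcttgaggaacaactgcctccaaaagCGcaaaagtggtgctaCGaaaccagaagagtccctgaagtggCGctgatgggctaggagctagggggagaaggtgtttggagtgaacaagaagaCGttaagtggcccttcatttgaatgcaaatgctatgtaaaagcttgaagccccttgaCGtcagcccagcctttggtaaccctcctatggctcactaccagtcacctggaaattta

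The *Cdx2* stretch holds 13 CpG and the *Cdx4* stretch 5. Over the whole 300-base window of the table, which runs on past the start site, *Cdx2* has 18 CpG, more than 70.3% of 32851 promoters, and *Cdx4* has 8, more than 51.4%, against a median of 7. A TCF/LEF motif, CTTTGAT or CTTTGAA on either strand, was found in neither window and is held by 8.65% of all promoters. The octamer ATGCAAAT, the textbook motif of OCT factors, is present once in each, at 147 bases before the start site in *Cdx2* and at 93 bases before it in *Cdx4*, and in 1.74% of all promoters on either strand. The octamer was searched for after the sequences had been seen, and such matches are letters in a window and not binding sites.

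ESCs of all lines were cultured on mouse embryonic fibroblast (MEF) feeders with LIF, SU5402, PD184352 and CHIR99021, of which the last inhibits GSK3 and so activates Wnt signalling, and EBs were formed by 2 days in low-attachment dishes without these 4 agents. Every group carries ERT2-Cre, and "mutant" stands for 4-OHT treated cells and "control" for untreated cells of the same line, so that 4-OHT and the allele change cannot be told apart. The *Pcgf1* line (*Pcgf1* f/f, becoming delta/delta) has 4 control ESC, 5 *Pcgf1*-KO ESC, 5 control EB and 5 *Pcgf1*-KO EB libraries. The other lines have 2 libraries in each of the same 4 groups. They are Ring1a pm/pm with a conditional *Ring1b* point mutant that becomes pm/pm, Ring1a-/- with *Ring1b* f/f or delta/delta, *Pcgf2* with *Pcgf4* f/f or delta/delta, *Pcgf3* with *Pcgf5* f/f or delta/delta, and *Pcgf6* f/f or delta/delta. The control cells of both *Ring1* lines thus already carry a mutated or deleted *Ring1a*. The sources used here do not say that replicates of a line came from separate clones or derivations, so p-values measure the spread between these libraries, which may be technical.

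The TPM of each library sum to 1000000, so the number of reads is unknown and no counting error can be given. From 6039 to 9139 genes had a listed value of 0 in a library. *Pcgf1* itself was at 7.30 to 16.6 TPM in the 9 control libraries and at 0.627 to 2.77 TPM in the 10 *Pcgf1*-KO libraries of its line. Outside the *Pcgf1* and *Ring1* point mutant lines, sample label and data name give different conditions for 21 of 32 libraries. In those 4 lines the targeted gene overlapped between libraries labelled control and mutant, so its level does not bear out the labels. *Pcgf6* was at 34.7 to 91.5 TPM in control and 37.0 to 104.6 TPM in mutant libraries by label, *Pcgf2* at 42.1 to 52.5 and 39.6 to 55.0 TPM, *Pcgf3* at 29.2 to 35.6 and 27.6 to 33.8 TPM, and *Rnf2*, the gene of RING1B, at 77.2 to 95.1 and 62.9 to 80.5 TPM in the *Ring1A/B* line. *Bmi1*, the other name of *Pcgf4*, and *Pcgf5* overlapped as well. Groups were kept as labelled, and values of those 4 lines are given with both. In the *Ring1* point mutant line *Rnf2* was at 66.6 to 85.8 TPM in control and 54.5 to 64.6 TPM in mutant libraries, which did not overlap. *Ring1*, the gene of RING1A, was at 9.11 to 13.6 and 12.2 to 15.6 TPM there. A point mutation need not change the level of its gene, so these levels are no check of the labels. The main results rest on the *Pcgf1* and *Ring1* point mutant lines, where label and name never differ in condition. In the *Pcgf1* line, summed naive pluripotency markers (11 genes) were at 3301 to 6765 TPM in ESCs and 388 to 1470 TPM in EBs, and summed formative epiblast markers (7 genes) at 61.3 to 154.8 TPM and 581 to 3683 TPM, with *Pou5f1* among the 3 core pluripotency genes that summed to at least 1726 TPM in each of its libraries.

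*Cdx1* (ENSMUSG00000024619.8) lies on the minus strand of chromosome 18 at 61178516 to 61195853 (mm9) and has 1 annotated transcript of 3 exons and 1750 bases. In the embryo it responds directly to Wnt and retinoic acid. It was the highest of the 3 genes in 50 of the 59 libraries. In control ESCs of the *Pcgf1* line it was at 31.05, 39.8, 38.9 and 52.9 TPM in replicates 1 to 4. In control EBs it was at 0.823, 0.663, 0.648, 0.952 and 0.696 TPM in replicates 1 to 5. The groups did not overlap, and the means of 40.7 ± 9.07 (SD, n = 4) and 0.756 ± 0.129 TPM (SD, n = 5) differed 53.8-fold. In a limma fit of log2(TPM + 0.1) over the 4 groups, the fall was -5.56 ± 0.38 (SE; adjusted p = 1.74e-08). A two-sided exact permutation test over these libraries gave p = 0.0159, the smallest that 5 against 4 libraries allow (12 such tests of members were made in all). *Cdx1* was lower in EBs within all 4 same-numbered pairs, which follows from groups that do not overlap. In this comparison 24.9% of 20594 genes tested passed the same threshold of 0.05 (Benjamini-Hochberg adjusted over all genes), and 43.9% with a replicate block, so passing it was common here, and the groups of 21.7% of genes did not overlap.

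In *Pcgf1*-KO ESCs *Cdx1* was at 68.8, 139, 147, 109.5 and 101 TPM, and in *Pcgf1*-KO EBs at 1.95, 1.27, 1.09, 5.16 and 4.74 TPM. It was thus lower in EBs without *Pcgf1* as well, at -5.49 ± 0.36 on the log2 scale (SE; limma, adjusted p = 1.17e-08). The two-sided exact permutation test gave p = 0.00794, the smallest for 5 against 5 libraries. The threshold was passed by 18.3% of all genes (36.8% with the replicate block), and the groups of 15.2% did not overlap. All 5 *Pcgf1*-KO EB libraries lay below all 9 ESC libraries of the line.

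Every *Pcgf1*-KO library lay above every control library of its stage for *Cdx1*. Over all genes, groups that did not overlap in either direction were found for 4.66% in ESCs and 3.05% in EBs. In EBs the rise was 3.76-fold by the means, from 0.756 ± 0.129 to 2.84 ± 1.95 TPM (SD, n = 5 each). The fitted difference was 1.52 ± 0.36 (SE; limma, adjusted p = 0.0341; two-sided exact permutation p = 0.00794). *Cdx1* was 1 of the 1.95% of genes called in this comparison (10.4% with the replicate block), and the only one of the 3 members. The call was lost with a pseudocount of 1 (adjusted p = 0.0888), when only the EB groups were fitted (adjusted p = 0.235) and when 1 of 6 EB libraries was left out. These were control EB replicates 1, 2, 3 and 5 (adjusted p from 0.0616 to 0.0787) and *Pcgf1*-KO EB replicates 4 and 5 (adjusted p = 0.102 and 0.108).

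The EB difference was uneven across the 3 library series named in the headers of the deposited data. *Cdx1* in *Pcgf1*-KO EBs was 2.37 times the control value in the series of replicate 1, 1.80 times in that of replicates 2 and 3, and 6.004 times in that of replicates 4 and 5. The naive factor *Klf4* was at 74.6 and 62.0 TPM in *Pcgf1*-KO EB replicates 4 and 5, against 4.85 to 20.2 TPM in replicates 1 to 3 and 3.54 to 12.4 TPM in control EBs. The formative marker *Fgf5* was at 11.2 and 8.46 TPM in those 2 libraries, against 25.1 to 45.8 TPM in replicates 1 to 3 and 25.4 to 68.5 TPM in control EBs. The part of these shifts in the *Cdx1* difference was not tested. In bulk RNA, a change in the number of cells with *Cdx1* and a change in *Cdx1* RNA per cell cannot be told apart.

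In ESCs the mean of *Cdx1* was 113 ± 31.5 TPM (SD, n = 5) without *Pcgf1* and 40.7 ± 9.07 TPM (SD, n = 4) in controls, a ratio of 2.78. The fitted difference of 1.45 ± 0.38 (SE) did not pass the test over all genes (limma, adjusted p = 0.103), although the groups did not overlap (two-sided exact permutation p = 0.0159). With same-numbered libraries as blocks it was 1.38 and passed (adjusted p = 0.0341), as it did with a pseudocount of 1 (0.0280) and with only the ESC groups fitted (0.0399). As the groups did not overlap, *Cdx1* was higher without *Pcgf1* in all 4 same-numbered pairs. It was 2.22 times the control value in the series of replicate 1, 3.64 times in that of replicates 2 and 3 and 1.99 times in that of replicates 4 and 5. In this comparison 0.641% of genes were called, and 5.31% with the block. The interaction, the difference in EBs minus that in ESCs, was 0.07, with a 95% interval from -1.03 to 1.17 (limma, adjusted p = 0.9999). The interval is wide in both directions, and 0.00486% of genes, 1 gene, passed that test. By series the log2 differences in ESCs and EBs were 1.15 and 1.15 for replicate 1. They were 1.86 and 0.76 for replicates 2 and 3, and 0.99 and 2.46 for replicates 4 and 5. The larger thus lay in ESCs for replicates 2 and 3 and in EBs for replicates 4 and 5.

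**Figure D1:**
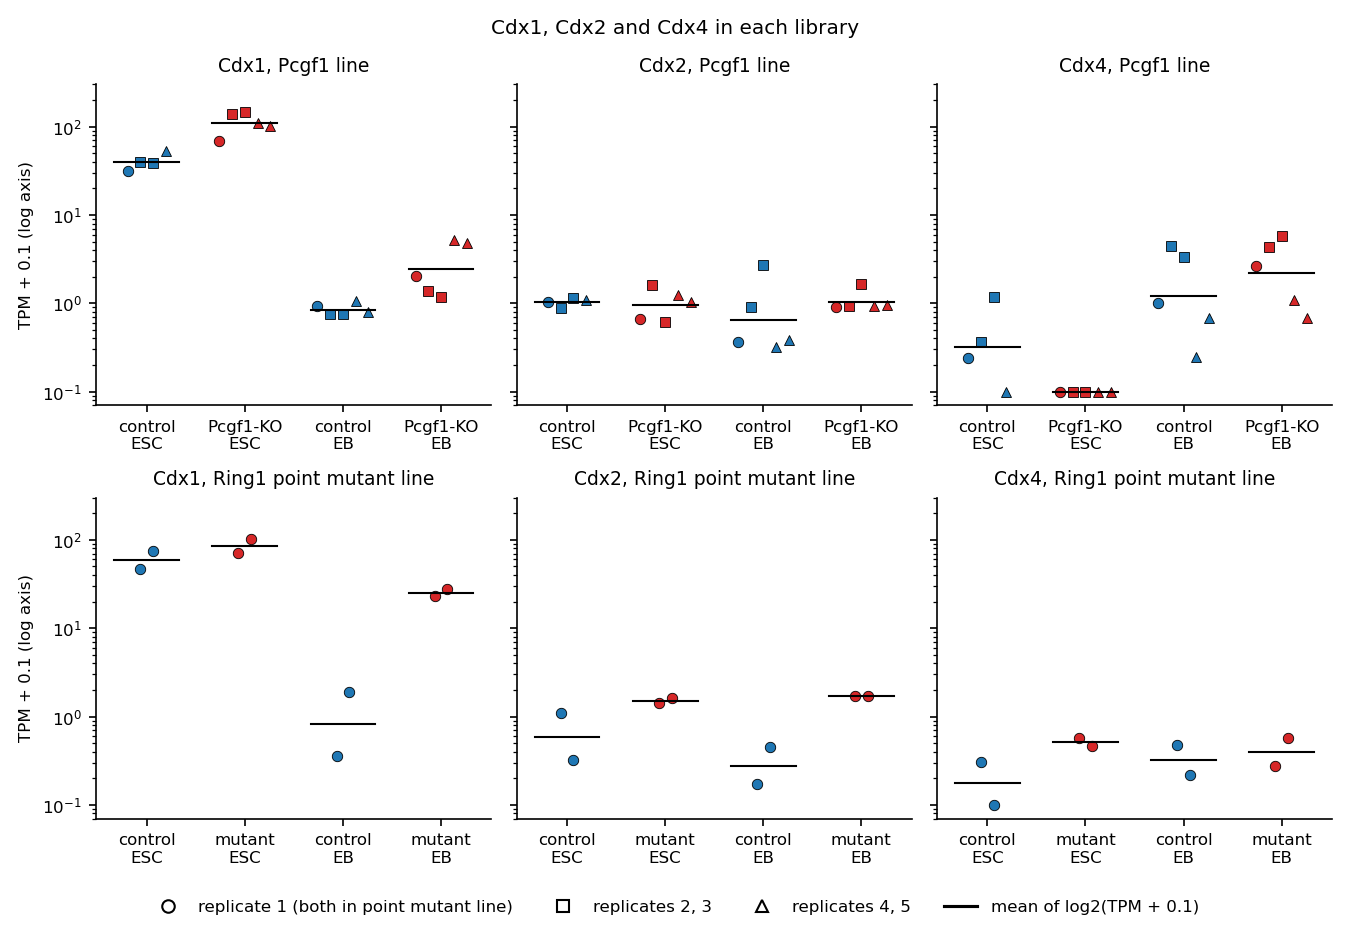
TPM + 0.1 (log axis) of *Cdx1*, *Cdx2* and *Cdx4* in each library of the *Pcgf1* line (top) and the *Ring1* point mutant line (bottom), with blue for control, red for mutant, and lines at the mean of log2(TPM + 0.1). Control EBs of both lines sit at 0.260 to 1.81 TPM of *Cdx1*, whereas point mutant EBs sit at 22.8 and 27.8 TPM; the lowest position in the *Cdx4* panels is a value listed at 0.

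*Cdx2*, the trophectoderm and intestine factor, stayed low in the *Pcgf1* line. It was at 0.938, 0.792, 1.06 and 0.983 TPM in control ESCs and at 0.567, 1.51, 0.511, 1.13 and 0.923 TPM in *Pcgf1*-KO ESCs. In control EBs it was at 0.269, 0.811, 2.64, 0.222 and 0.284 TPM, and in *Pcgf1*-KO EBs at 0.797, 0.8293, 1.55, 0.823 and 0.858 TPM. All 4 groups overlapped, and replicate 3 was the highest library of both EB groups. None of the 4 two-group comparisons or the interaction was called for *Cdx2* by limma or passed a two-sided exact permutation test at 0.05 (4 tests, p from 0.270 to 0.778), and its 5 unadjusted limma p-values were 0.181 or more. The 95% interval of the log2 difference ran from -1.78 to 0.41 for control EBs against control ESCs, from -0.92 to 1.15 for *Pcgf1*-KO EBs against *Pcgf1*-KO ESCs, from -1.21 to 0.99 for *Pcgf1*-KO against control ESCs and from -0.35 to 1.72 for *Pcgf1*-KO against control EBs. Without control EB replicate 3, the fall in control EBs was -1.20 and passed the test (limma, adjusted p = 0.0393), whereas no alternative tried called *Cdx2* in the other comparisons of this line.

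*Cdx4*, the X-linked member, was listed at 0 in 14 of the 59 libraries, among them all 5 *Pcgf1*-KO ESC libraries. Control ESCs of the *Pcgf1* line were at 0.140, 0.266, 1.07 and 0 TPM. *Cdx4* was above 0 in all 10 EB libraries of the line, at 0.903, 4.36, 3.20, 0.149 and 0.573 TPM in controls and at 2.57, 4.18, 5.67, 0.984 and 0.577 TPM without *Pcgf1*. It was the most abundant of the 3 members in 6 of these 10 EB libraries, and in both EB groups replicates 2 and 3, which share a library series, were the highest.

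Every *Pcgf1*-KO EB library lay above every *Pcgf1*-KO ESC library for *Cdx4*, and so in 5 of 5 pairs (limma, adjusted p = 4.31e-04, and two-sided exact permutation p = 0.00794). Since the ESC libraries were listed at 0, no fold is given. In this comparison 18.3% of all genes were called (36.8% with the replicate block), and the groups of 15.2% did not overlap. Control EBs had a mean of 1.84 ± 1.84 TPM (SD, n = 5) against 0.369 ± 0.479 TPM (SD, n = 4) in control ESCs, and the fitted difference of 1.91 ± 0.82 (SE) did not pass (limma, adjusted p = 0.101; two-sided exact permutation p = 0.143). Blocked by replicate number it was 2.12 and passed (limma, adjusted p = 0.00757), as did 43.9% of all genes. EBs were higher in all 4 pairs, and the share of all genes with 1 direction in every pair was not counted. The unblocked difference depended on single libraries. This difference passed without control ESC replicate 3 (2.54, adjusted p = 0.0383) and without control EB replicate 4 (2.48, adjusted p = 0.0266). *Pcgf1*-KO against control did not pass for *Cdx4* in ESCs (limma, adjusted p = 0.594) or in EBs, where the difference was 0.86 with a 95% interval from -0.76 to 2.48 (adjusted p = 0.784), and the interaction did not pass (adjusted p = 0.821; unadjusted 0.0375).

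**Figure D2:**
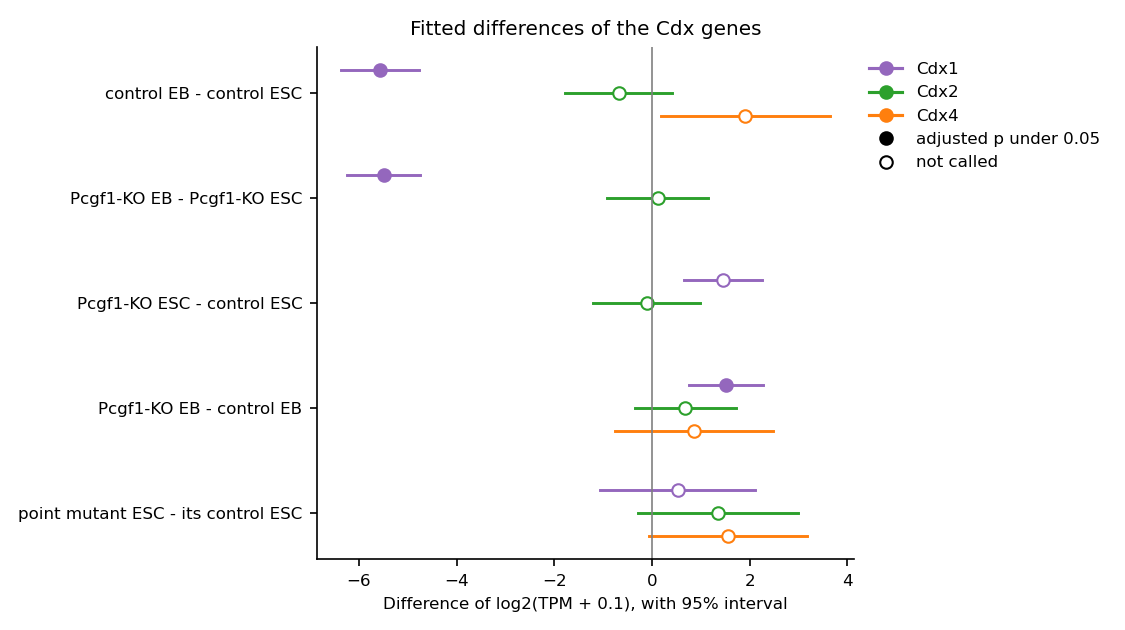
Fitted differences of log2(TPM + 0.1) (x axis) with their 95% intervals for the 3 genes (colours) in each tested comparison of the *Pcgf1* line and in point mutant against control ESCs, with filled points where the limma adjusted p was under 0.05. *Cdx1* lies near -5.5 in both EB against ESC comparisons and near 1.5 in both *Pcgf1*-KO against control comparisons, and *Cdx4* is left out where the compared group was listed at 0.

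In the *Ring1* point mutant line, *Cdx1* was at 46.8 and 75.0 TPM in control ESCs and at 71.8 and 101.8 TPM in mutant ESCs (replicates 1 and 2). *Cdx2* was at 1.00 and 0.219 TPM in control ESCs and at 1.33 and 1.504 TPM in mutant ESCs, and *Cdx4* at 0.208 and 0 TPM and at 0.470 and 0.368 TPM. For *Cdx2* and *Cdx4* the mutant ESC libraries were the 2 highest, and for *Cdx1* the groups overlapped. Groups of 2 libraries did not overlap for 45.4% of all genes, so this was common here. All 3 were higher in mutant ESCs at each replicate number, as were 41.9% of all genes. None of the 3 was called by limma, which called 2.54% of 20279 genes in this comparison, and none had an unadjusted p under 0.05. The spread was taken over all groups of the line, so its EB libraries enter these p-values and the intervals. With only the ESC groups fitted, no member was called either (limma, adjusted p of 0.243 or more). The log2 difference was 0.53 for *Cdx1* with a 95% interval from -1.06 to 2.12, 1.35 for *Cdx2* from -0.28 to 2.98, and 1.56 for *Cdx4* from -0.06 to 3.17 (adjusted p = 0.788, 0.405 and 0.317). The median log2 difference over all genes tested was 0.12.

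The EB values of this line are those the choice rested on. *Cdx1* was at 0.260 and 1.81 TPM in control EBs and at 22.8 and 27.8 TPM in point mutant EBs, 24.5 times higher by the means. *Cdx2* was at 0.0708 and 0.347 TPM in control EBs and at 1.63 and 1.63 TPM in point mutant EBs, and *Cdx4* at 0.381 and 0.117 TPM and at 0.175 and 0.476 TPM. The fitted log2 differences, given as a description, were 4.93 for *Cdx1* and 2.64 for *Cdx2*, in a comparison in which 4.53% of all genes were called. From ESCs to EBs *Cdx1* fell by 6.16 on the log2 scale in controls and by 1.76 in point mutants. Point mutant EBs thus kept a *Cdx1* level below that of each ESC library of this line. It was above that of each *Pcgf1*-KO EB library and each control EB library of the *Pcgf1* and point mutant lines.

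Other stage genes also differed in these 2 libraries, given here without a test. *Klf4* was at 103.8 and 122 TPM in point mutant EBs and at 37.2 and 65.1 TPM in their controls, and *Fgf5* at 3.06 and 2.91 TPM and at 44.0 and 22.7 TPM. The median log2 difference between point mutant and control EBs was 0.67 over 11 naive markers and -1.80 over 7 formative markers, against 0.10 over all genes. Feeder fibroblast markers (12 genes) summed to 78.2 and 80.0 TPM in point mutant EBs and 31.7 and 35.9 TPM in control EBs, with a median log2 difference of 1.21, and the defining collagen *Col1a1* was at 11.7 and 9.35 TPM against 3.01 TPM in both. The part of these cells and stages in the *Cdx1* values was not tested.

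**Figure D3:**
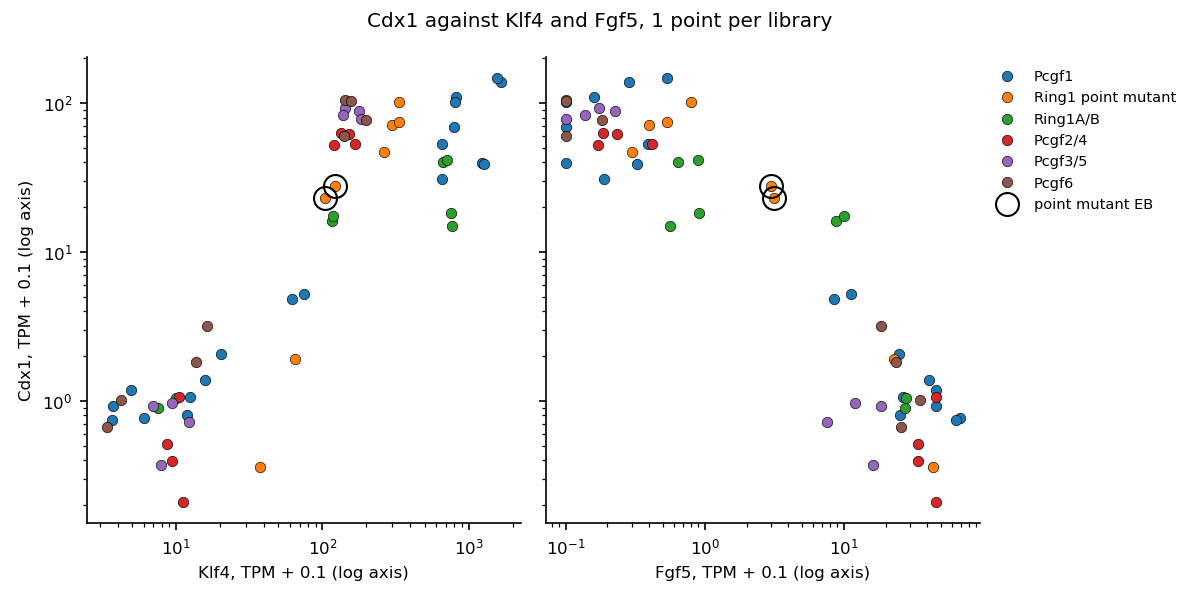
*Cdx1* (y axis) against *Klf4* (left) and *Fgf5* (right), as TPM + 0.1 on log axes, with 1 point for each of the 59 libraries coloured by line. Most libraries lie in 2 separate clouds, high or low in *Cdx1*, and the circled point mutant EBs (22.8 and 27.8 TPM of *Cdx1*) lie between them. So do the *Ring1A/B* libraries labelled control ESC (18.1 and 14.8 TPM) and mutant EB (15.97 and 17.4 TPM).

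Across all 59 libraries, the genes with mean TPM of at least 1 whose log2(TPM + 0.1) was most like that of *Cdx1* included *Bcl3*, *Mras*, *Socs3* and *Mme*, with Pearson r from 0.929 to 0.943 among 13724 genes. *Socs3* is a target and inhibitor of the LIF and STAT3 pathway, *Bcl3* an atypical IkB protein and *Mras* a RAS-family GTPase. Since most libraries form an ESC cloud and an EB cloud, r was also taken within the stages of the *Pcgf1* line. Control and *Pcgf1*-KO libraries were pooled within each stage, so a difference between them enters these values. For *Mras* r was 0.932 over the 9 ESC libraries and 0.837 over the 10 EB libraries, for *Bcl3* 0.771 and 0.781, for *Socs3* 0.523 and 0.348, and for *Mme* 0.0364 and 0.662. For *Cdx2* the most alike genes were *Pcdh19*, *Gas2l1*, *Fam171a1*, *Phldb2* and *Gm21319* (r from 0.747 to 0.789), and for *Cdx4* they included *Zswim4*, *Myef2*, *Hells* and *Zfp764* (r from 0.752 to 0.757). Within the *Pcgf1* line r ran from -0.0557 to 0.272 in ESCs and from 0.612 to 0.790 in EBs for these genes of *Cdx2*, and from 0.379 to 0.754 and from 0.689 to 0.855 for those of *Cdx4*. Between the members themselves r was 0.448 for *Cdx1* with *Cdx2*, -0.430 for *Cdx1* with *Cdx4* and 0.306 for *Cdx2* with *Cdx4*. Within ESCs and EBs of the *Pcgf1* line these were -0.00417 and 0.107, -0.701 and -0.216, and 0.128 and 0.732 in the same order. These values describe 59 libraries that share lines and library series.

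Among Wnt targets and genes set as upstream of *Cdx*, some rose and some fell in the control ESC to EB change of the *Pcgf1* line. Of 17 Wnt and beta-catenin targets tested, 3 rose and 2 fell, with a median log2 difference of -0.04 against -0.00 for all genes. Of all genes 24.9% were called here, and 43.9% with the replicate block. *Sp5* (6.98 ± 3.14 to 0.187 ± 0.206 TPM) and *Axin2*, a feedback inhibitor of the pathway (38.1 ± 17.6 to 7.82 ± 2.48 TPM), fell as *Cdx1* did, while the TCF/LEF factor *Lef1* (6.43 ± 3.32 to 36.9 ± 15.1 TPM) and *Nkd1* (1.05 ± 0.488 to 2.92 ± 0.616 TPM) rose (SD, n = 4 ESC and 5 EB). Of 18 retinoic acid, Wnt and FGF genes set as upstream, 7 rose and 1 fell (median 0.56), among them *Fgf5* (0.152 ± 0.132 to 46.2 ± 20.3 TPM), *Fgf15* (1.54 ± 0.613 to 28.4 ± 4.19 TPM) and *Fgf8* (0.4001 ± 0.287 to 4.50 ± 2.08 TPM). *Wnt8a*, a ligand of the posterior epiblast, went from a listed 0 in all 4 control ESC libraries to 12.6 ± 6.90 TPM (SD, n = 5). With the replicate block these counts were 6 up and 4 down, and 9 up and 5 down.

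Of 18 caudal epiblast and tailbud genes, 6 rose and none fell in control EBs (median 0.45; 7 and 2 with the block), including *Dll3* (1.24 ± 0.472 to 12.8 ± 5.07 TPM), *Gdf11* (1.64 ± 0.674 to 8.05 ± 4.81 TPM), *Fgf8* and *Wnt8a*. Of 39 *Hox* genes, which CDX proteins regulate in the embryo, 8 rose and 7 fell (median 0.12). The comparison called 24.9% of all genes, and 43.9% with the block. *Hoxb2* (0.230 ± 0.157 to 3.83 ± 2.89 TPM) and *Hoxb5* (0.0428 ± 0.0856 to 1.56 ± 0.901 TPM) rose and *Hoxb1* went from a listed 0 in all 4 ESC libraries to 1.60 ± 0.939 TPM, whereas *Hoxc12* fell from 3.65 ± 1.62 to 0.0361 ± 0.0808 TPM. Of 16 intestinal genes, 2 rose and 3 fell (median -0.28), and *Heph*, a ferroxidase of the gut, rose from 0.314 ± 0.144 to 1.83 ± 0.768 TPM.

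Of 14 ParaHox genes and neighbours of these loci, none rose and 6 fell (median -0.67), where 24.9% of all genes were called (43.9% with the block). The neurotransmitter transporter gene *Slc6a7* (13.7 ± 3.84 to 0.831 ± 0.889 TPM) and the kinase gene *Camk2a* (4.06 ± 1.42 to 0.759 ± 0.560 TPM) fell, as did the receptor genes *Kit* (162 ± 48.5 to 15.5 ± 4.42 TPM) and *Pdgfrb* (4.25 ± 1.84 to 0.422 ± 0.0924 TPM). Of 14 trophoblast genes, the other tissue of *Cdx2*, 1 rose and 8 fell (median -1.44), among them *Gata2* (13.5 ± 5.05 to 0.892 ± 0.686 TPM) and *Eomes* (20.6 ± 7.52 to 4.74 ± 1.30 TPM). In the same comparison 10 of 11 naive markers fell and 7 of 7 formative markers rose. Of the other lists, 2 of 8 primitive streak genes fell, 1 of 7 primitive endoderm genes rose and 2 fell, none of 3 core pluripotency genes was called (1 with the block). Of 12 feeder markers 2 rose and 5 fell, with feeder sums of 235 to 300.2 TPM in ESCs and 34.1 to 70.2 TPM in EBs. The part of feeder RNA in the ESC values of the *Cdx* genes was not tested.

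In *Pcgf1*-KO EBs against *Pcgf1*-KO ESCs, in which 18.3% of all genes were called around a median of 0.00, 5 of the 17 Wnt targets rose and 3 fell (median 0.10), with *Sp5* from 9.01 ± 6.46 to 0.143 ± 0.172 TPM and *Lef1* from 2.37 ± 1.91 to 59.2 ± 46.3 TPM (SD, n = 5 each). *T*, the primitive streak factor, fell from 2.72 ± 0.505 to 0.417 ± 0.167 TPM. Of the 18 upstream genes 6 rose and 1 fell (median 0.34), and of 18 caudal genes 7 rose and 3 fell (median 0.06). In the *Hox* list 5 of 39 rose and 4 fell (median 0.05; 8 and 8 with the block). Further, of 16 intestinal genes 1 rose and 1 fell (median -0.07), of 14 ParaHox genes and neighbours 3 rose and 5 fell (median -0.11), and of 14 trophoblast genes none rose and 8 fell (median -1.11). The posterior Wnt ligand gene *Wnt3a* fell from 1.62 ± 0.667 to 0.0812 ± 0.145 TPM and the caudal epiblast factor *Nkx1-2* from 6.87 ± 3.75 to 0.342 ± 0.383 TPM. *Gsx1*, the ParaHox neighbour of *Cdx2*, rose from 0.191 ± 0.339 to 6.85 ± 3.48 TPM. Of the stage and cell type markers, 8 of 11 naive markers fell (median -1.81), 7 of 7 formative markers rose (median 4.16) and 3 of 7 primitive endoderm genes rose (median 1.48; 5 with the block). Of 8 primitive streak genes 1 rose and 2 fell, and of 12 feeder markers 6 fell (median -1.54; 8 with the block), with sums of 190 to 248.9 TPM in ESCs and 17.7 to 38.6 TPM in EBs. Their part in the *Cdx* values was not tested.

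Few genes of these lists passed the test between *Pcgf1*-KO and control ESCs. None of the 17 Wnt targets (median -0.05), 39 *Hox* genes (median 0.43) and 14 ParaHox genes and neighbours (median -0.09) was called by limma, against 0.641% of all genes and a median of -0.02. Of the upstream genes *Bmp4* rose from 1.93 ± 0.240 to 8.20 ± 2.06 TPM. Of the caudal genes the Notch ligand *Dll1* fell from 9.49 ± 5.02 to 1.80 ± 1.07 TPM. Of the intestinal genes the glucose transporter *Slc5a1* rose from 1.07 ± 0.678 to 3.14 ± 0.832 TPM. Among 14 trophoblast genes the keratin *Krt8* rose from 19.1 ± 2.10 to 46.4 ± 5.29 TPM and *Krt7* fell from 25.4 ± 7.55 to 7.61 ± 1.24 TPM. The formative factor *Otx2* fell from 24.4 ± 11.7 to 5.18 ± 2.15 TPM (SD, n = 4 and 5; limma, adjusted p = 0.00522), as the 1 of 7 formative markers called. None of 11 naive, 12 feeder, 8 primitive streak or 7 primitive endoderm markers was called. With the replicate block 1 Wnt target, 4 upstream genes, 3 caudal genes, 4 trophoblast genes, 2 formative markers and 1 primitive endoderm gene were called.

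Between *Pcgf1*-KO and control EBs, where *Cdx1* was called, *Notum*, a secreted Wnt inhibitor, was the 1 of 17 Wnt targets called (4.90 ± 1.46 to 17.6 ± 6.18 TPM; median of the list -0.05 against -0.03 for all genes). Of all genes 1.95% were called in this comparison, and 10.4% with the block. None of 18 caudal genes was called (median -0.52; 2 fell with the block). Of 18 upstream genes 1, the retinoic acid binding protein gene *Crabp2*, fell (31.6 ± 19.4 to 9.84 ± 5.86 TPM). In the *Hox* list 3 of 39 *Hox* genes rose (median 0.58; 7 rose and 1 fell with the block), among them *Hoxc4* (0.451 ± 0.523 to 2.27 ± 1.43 TPM). Of 14 ParaHox genes and neighbours 3 rose and none fell (median 0.38), and *Gsx1* rose from 0.428 ± 0.322 to 6.85 ± 3.48 TPM. *Pdgfra*, a neighbour of the *Kit* locus and a primitive endoderm marker, rose from 0.290 ± 0.158 to 1.60 ± 0.697 TPM. Of other cell types, 3 of 7 primitive endoderm genes and 2 of 11 naive markers rose (5 and 7 with the block). Of 8 primitive streak genes 1, *Eomes*, rose from 4.74 ± 1.30 to 16.5 ± 7.52 TPM. No formative marker was called (2 fell with the block), and 1 of 16 intestinal genes fell (3 with the block). Of 14 trophoblast genes *Eomes* rose and *Krt7* fell, the latter from 4.42 ± 1.24 to 0.875 ± 0.506 TPM (3 rose and 2 fell with the block). *Thy1*, the 1 of 12 feeder markers called (2 with the block), fell from 20.8 ± 4.17 to 3.13 ± 0.560 TPM (SD, n = 5 each; limma, adjusted p = 2.23e-04). Feeder sums, which include *Thy1*, were at 17.7 to 38.6 TPM without *Pcgf1* and 34.1 to 70.2 TPM in controls, ranges that overlap. The median log2 difference of the list was -0.43. *Col1a1* was at 3.49 to 6.48 TPM without *Pcgf1* and 3.74 to 9.25 TPM in controls, and *Lum* was at 0 in all 5 *Pcgf1*-KO libraries.

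In point mutant ESCs, in which no *Cdx* gene was called, 10 of 39 *Hox* genes rose and none fell (median 2.17 against 0.12 for all genes), among them *Hoxd13* (0.589 ± 0.299 to 12.1 ± 3.18 TPM) and *Hoxa7* (0.208 ± 0.0666 to 5.83 ± 2.49 TPM; SD, n = 2 each). Of the upstream genes 2 rose and 1 fell. *Aldh1a2*, the main retinoic acid synthesis enzyme of the embryo, rose from 1.15 ± 0.549 to 8.91 ± 0.134 TPM and *Fgf8* from 0.548 ± 0.0644 to 3.99 ± 0.492 TPM. The retinoic acid receptor gene *Rara* fell from 35.2 ± 2.65 to 17.9 ± 1.11 TPM. *Fgf8* was also the 1 of 18 caudal genes called, and the Wnt feedback gene *Nkd1* the 1 of 17 Wnt targets (0.965 ± 0.472 to 6.46 ± 1.42 TPM). Of 14 trophoblast genes 5 rose, including *Esx1* (6.74 ± 0.127 to 52.1 ± 21.3 TPM), and none of 15 intestinal genes and 13 ParaHox genes and neighbours was called. The comparison called 2.54% of all genes. Of other cell types, 2 of 7 primitive endoderm genes rose (*Gata4* and *Gata6*; median 1.78), with sums of 5.77 to 7.06 TPM in control and 25.96 to 27.3 TPM in mutant ESCs. Of 12 feeder markers the collagen *Col6a2* rose (median 1.15), with sums of 45.8 to 47.6 TPM and 83.2 to 98.7 TPM. Of 11 naive markers *Klf2* fell, 1 of 8 primitive streak genes rose and none of 7 formative markers was called. The part of these cells in the *Cdx* values was not tested. In point mutant EBs against control EBs, described without a test, the median log2 difference was 2.60 over the *Hox* genes, 1.62 over trophoblast, 0.67 over upstream, 0.45 over caudal and 0.03 over Wnt genes, against 0.10 over all genes.

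In the *Ring1A/B* line the libraries of each labelled group agree in their data names, but 2 groups carry another name: those labelled mutant ESC are named control EB, and those labelled control EB are named mutant ESC. *Cdx1* was at 18.1 and 14.8 TPM in libraries labelled control ESC and at 0.947 and 0.795 TPM in those labelled mutant ESC. It was at 40.1 and 41.2 TPM in those labelled control EB, and at 15.97 and 17.4 TPM in those labelled mutant EB. *Cdx2* was at 0.748 and 0.155 TPM, 0.211 and 0.371 TPM, 1.66 and 1.85 TPM, and 5.25 and 5.20 TPM in the same order, and the last pair holds the highest *Cdx2* values of the 59 libraries. *Cdx4* stayed at 0.104 to 0.923 TPM in all 8. *Klf4* was at 9.90 TPM and *Fgf5* at 27.98 TPM in replicate 1 labelled mutant ESC, whereas *Klf4* was at 754 TPM and *Fgf5* at 0.816 TPM in replicate 1 labelled control ESC.

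Tested by label, *Cdx1* was called in all 4 comparisons of this line, at 1.31 ± 0.12 for control EB against control ESC (SE; limma, adjusted p = 1.65e-04), 4.12 ± 0.12 for mutant EB against mutant ESC (3.93e-07), -4.09 ± 0.12 for mutant ESC against control ESC (4.31e-07) and -1.28 ± 0.12 for mutant EB against control EB (2.83e-04). *Cdx2* was called in the first and the second, at 1.99 ± 0.54 (adjusted p = 0.0200) and 3.80 ± 0.54 (6.09e-04), and not in the third (-0.28, adjusted p = 0.726) or the fourth (1.53, adjusted p = 0.0659). The first *Cdx2* call was lost without control EB replicate 1, control EB replicate 2 or control ESC replicate 2 (2.06, 1.92 and 1.12; adjusted p = 0.114, 0.133 and 0.0529), and the third comparison became called without control ESC replicate 2 (-1.15, adjusted p = 0.0431). *Cdx4* was called in none, with unadjusted p of 0.402 or more. These comparisons called 43.2%, 56.5%, 48.8% and 33.3% of 20344 genes in the same order, so a call was common in each, and their direction rests on labels that the data names contradict. By the data names, the first holds mutant against control ESCs and the second mutant against control EBs. The third holds control EBs against control ESCs and the fourth mutant EBs against mutant ESCs. Summed naive markers were at 549 to 558 TPM in libraries labelled mutant ESC and at 3543 to 3632 TPM in those labelled control EB. Summed formative markers were at 1297 to 1353 TPM and at 159 to 166 TPM in the same order. These stage markers thus went with the stage in the data names.

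In the *Pcgf2/4*, *Pcgf3/5* and *Pcgf6* lines some labelled groups mix libraries named ESC and EB. *Cdx1* was at 52.5 to 62.6 TPM in the 4 *Pcgf2/4* libraries named ESC and 0.108 to 0.958 TPM in the 4 named EB. It was at 78.4 to 93.1 TPM and 0.269 to 0.859 TPM in the *Pcgf3/5* line, and at 60.0 to 105.7 TPM and 0.565 to 3.07 TPM in the *Pcgf6* line. Both labels and names are shown in the plot of these lines. In the *Pcgf2/4* line *Cdx1* in labelled control ESCs was at 52.5 TPM (named control ESC) and 0.296 TPM (named control EB), and in labelled control EBs at 62.6 TPM (named mutant ESC) and 0.108 TPM (named mutant EB). In the *Pcgf6* line, *Cdx1* was at 3.07 TPM in the library labelled control EB replicate 2 and at 1.72 TPM in that labelled mutant EB replicate 2, both named mutant EB. It was at 0.565 and 0.906 TPM in the 2 libraries named control EB, which are labelled control ESC and mutant ESC. *Cdx2* was at 0 to 1.13 TPM and *Cdx4* at 0 to 0.746 TPM over the 24 libraries.

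By label, none of 36 limma tests of the members in these 3 lines passed, and 3 had an unadjusted p under 0.05. Groups that mix libraries named ESC and EB carry the stage into the spread of each fit. The fitted SD of *Cdx1* was 2.93, 3.80 and 3.11 on the log2 scale in the *Pcgf3/5*, *Pcgf2/4* and *Pcgf6* lines. These tests thus cannot tell whether *Cdx1* differed. In the *Pcgf3/5* line both labelled control groups were uniform in named stage. *Cdx1* was at 88.5 and 82.8 TPM in labelled control ESCs and at 0.859 and 0.816 TPM in labelled control EBs. The fitted difference was -6.51 ± 2.93 (SE; limma, unadjusted p = 0.0655), with a spread shared with the mixed mutant groups. The comparisons of control EB against control ESC, mutant EB against mutant ESC, mutant ESC against control ESC and mutant EB against control EB called 0.0601%, 0%, 0.0401% and 0.0301% of 19963 genes in the *Pcgf3/5* line, and 0% of 19250 and 19695 genes in all 4 comparisons of the *Pcgf2/4* and *Pcgf6* lines.

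**Figure D4:**
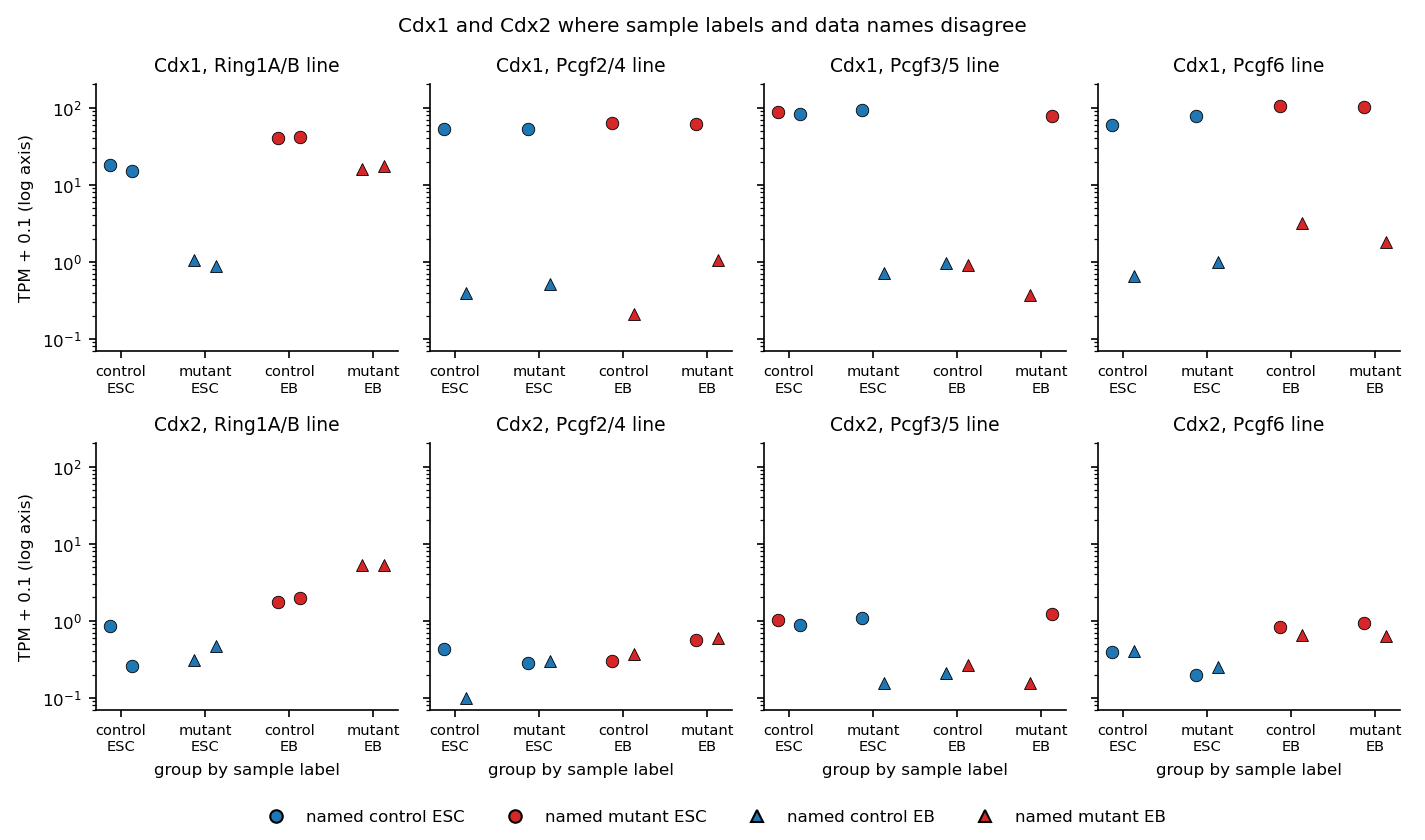
*Cdx1* (top) and *Cdx2* (bottom) as TPM + 0.1 (log axis) in each library of 4 lines, placed by sample label on the x axis, with circles for libraries named ESC, triangles for those named EB, blue for named control and red for named mutant. In the *Pcgf2/4*, *Pcgf3/5* and *Pcgf6* lines *Cdx1* is 52.5 TPM or more in every circle and 3.07 TPM or less in every triangle whatever the label, and in the *Ring1A/B* line the red triangles are at 15.97 and 17.4 TPM.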

How the data were processed

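RNA-seq data of 59 libraries from 6 mouse ESC lines were used. The authors sequenced poly(A) RNA, mapped it to mm9 by STAR 2.5.2b with reads counted over exons, and deposited TPM per gene symbol; how counts became TPM is not described in the sources used here. TPM hold no depth, so the precision that depth gives is unknown. The authors used DESeq2 for their fold changes, which was not possible here without counts. Libraries were grouped by their sample labels. Title and characteristics number 1 *Pcgf1*-KO EB library differently (4 and 5), and the title was followed.

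The main test was limma 3.58.1 under R 4.3.3, applied to log2(TPM + 0.1) in 1 fit per line over 4 groups with a variance trend, for genes above 0 TPM in at least 1 library of the line, and p was adjusted over all of them (Benjamini-Hochberg, threshold 0.05). Fold changes are on this scale and understate those of low genes. Two-sided exact permutation tests were run with scipy 1.17.1 under Python 3.11.15, tables were made with pandas 2.3.3 and numpy 2.4.6, and plots with matplotlib 3.10.9. The fit was tested on simulated data. In the *Pcgf1* line same-numbered libraries deviated together from their group means (r from 0.317 to 0.653 in 27 of 27 pairs, over 13400 genes), and the numbers, which are those of the labels, were taken as pairs in the block fits. No 2 libraries held identical values.

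The genes named are the members, the 5 genes most like each in Pearson r over 59 libraries, and up to 4 called genes with the largest difference per list, where either group averaged 1 TPM or more; a gene of 2 lists counts in both. Of the most alike genes, 2 are not reported here. The members and lists were chosen with earlier results of these data known. Each result was recomputed with a replicate block, with quantile normalization, with median-of-ratios scaling, with a pseudocount of 1, over genes averaging 1 TPM or more, without each replicate and, in the *Pcgf1* and point mutant lines, with the other groups left out of the fit.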

Additional observations from a re-analysis of the deposited data

Results flagged for a closer look

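*Cdx2* was at 2.64 TPM in control EB replicate 3 of the *Pcgf1* line and at 1.55 TPM in *Pcgf1*-KO EB replicate 3, each standing further from the other 4 libraries of its group than Dixon's test allows at the 95% level. The other control EB libraries were at 0.222 to 0.811 TPM and the other *Pcgf1*-KO EB libraries at 0.797 to 0.858 TPM. These were 2 flags in 11 groups of members tested, and chance flags about 1 group in 20. The 2 libraries share a replicate number and a library series, and *Cdx4* was also high in both, at 3.20 and 5.67 TPM.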

How the results depend on the processing

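In the *Pcgf1* line the fall of *Cdx1* in both EB comparisons and the difference of *Cdx4* in *Pcgf1*-KO EBs kept direction and call under every alternative. *Cdx1* in *Pcgf1*-KO against control ESCs became called with a pseudocount of 1 (1.43), the replicate block (1.38) and only the groups compared (1.45). *Cdx1* in *Pcgf1*-KO against control EBs lost its call with a pseudocount of 1 (0.98) and only the groups compared (1.52), and was 1.24 to 1.78 with 1 replicate left out. *Cdx4* in control EBs became called with the block (2.12) and ranged from 1.36 to 2.54 with 1 replicate left out. *Cdx2* ranged from -1.20 to -0.43 in control EBs against ESCs, from -0.054 to 0.30 in *Pcgf1*-KO EBs against ESCs and from -0.30 to 0.054 in *Pcgf1*-KO against control ESCs. The *Cdx1* interaction was -0.45 with a pseudocount of 1 and -0.21 to 0.33 with 1 replicate left out. The cause of these changes was not tested. The block changed no other call of a member. It raised the genes called from 5138 to 9050, 3770 to 7573, 132 to 1094 and 402 to 2143 in the first 4 comparisons.

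In the *Ring1A/B* line by label, *Cdx2* lost its call in control EBs against ESCs with quantile normalization (1.23) and became called in mutant against control EBs with a pseudocount of 1 (1.18) and with genes of at least 1 TPM (1.53). With 1 replicate left out it ranged from 1.12 to 2.86 in control EBs against ESCs and from -1.15 to 0.58 in mutant against control ESCs. In the point mutant line, with a pseudocount of 1 *Cdx1* was -5.00 in control EBs against ESCs and 3.80 in mutant against control EBs, and *Cdx2* was 1.13 in the latter; with 1 replicate left out *Cdx1* ranged from -7.36 to -4.96 and from 3.73 to 6.13. In that line same-numbered libraries share only a number, with 2 numbers and correlations of their deviations from 0.106 to 0.381. A replicate block raised the genes called in mutant against control ESCs from 515 to 1326 and called no member (limma, adjusted p = 0.607, 0.345 and 0.243 for *Cdx1*, *Cdx2* and *Cdx4*). A mean of at least 1 TPM removed *Cdx2* from all lines but *Ring1A/B*, and *Cdx4* from all but *Pcgf1*, so no value is given there. Crossing the replicate numbers in mutant EBs of the *Pcgf3/5* line, an alternative chosen after seeing the data, left 0 genes called by limma in mutant EBs against ESCs, as did the numbers as labelled. Depth is unknown, so a value listed at 0 gives no upper limit.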
